A study of Bos taurus with 28 samples.

Results

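Bovine conceptuses of day 19, when the filament begins to attach to the uterus, were compared with ovoid conceptuses of day 13, when elongation starts. The comparison took every library labelled day 13 (5) or day 19 (5) except day 19 replicate 5, whose file is named for day 7. It thus held 9 of the 28 libraries of the series, 5 of day 13 and 4 of day 19. Each library was made from polyadenylated RNA of conceptuses flushed from crossbred beef heifers of about 18 months. The heifers, mainly of Charolais and Limousin crosses, were synchronised with a progesterone device and a prostaglandin analogue and inseminated with semen of 1 bull. Per the labels' protocols, conceptuses of both days were used singly and these heifers were not superovulated. The sample characteristics of day 13 instead state pooling and superovulation, and those of day 19 state neither. Per the same protocols, polyadenylated RNA was taken directly from day 13 conceptuses, whereas total RNA was prepared first on day 19. Stage and RNA preparation therefore cannot be told apart in any result here. Each of the 4 day 19 files carries the name of another sample of that day, so libraries go by the samples they were deposited for. Replicates are numbered in accession order within a labelled day, and a number pairs nothing between days.

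Between these days the ruminant conceptus turns from an ovoid vesicle into a long filament, mainly by growth of the trophectoderm, the outer epithelium that will form the placenta. The hypoblast, which lines the vesicle, spreads with it, and the embryo proper forms from the epiblast. The trophectoderm secretes interferon tau, the signal by which the mother recognises pregnancy, and later adheres to the uterine lining, where binucleate trophoblast cells arise. The files name transcripts by Ensembl identifier and do not pair these with genes: 0 of 28054 identifiers matched the 37063 genes of the RefSeq table used (assembly ARS-UCD2.0). Neither genes of these lineages nor markers of other cells could be read, so transcripts are described by identifier, length, level and behaviour.

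Values are RPKM, reads per kilobase of transcript and per 1e6 reads (M) of the library. Library totals were 1.23 to 6.50 M reads on day 13 and 5.34 to 10.9 M on day 19, with means of 4.73 ± 2.08 M (SD, n = 5) and 9.26 ± 2.63 M (n = 4). Depth therefore moved with day, and its part in a result is given beside it where reads were thinned to equal depth, 1232677 per library. A transcript without a read could still lie at up to 2.43 CPM (reads per 1e6 reads of the library) in the shallowest library, day 13 replicate 5, and 0.276 CPM in the deepest. Day 13 replicate 5 stood apart from its day. At equal depth its Pearson correlations with day 13 replicates 1 to 4, across 14591 transcripts, were 0.733 to 0.740, where those 4 had 0.906 to 0.941 with each other. With the day 19 libraries it had 0.719 to 0.773 (mean 0.752), no higher than the 0.718 to 0.796 (mean 0.763) that day 13 replicates 1 to 4 had with them. The day 19 libraries had 0.892 to 0.945 with each other. Among its 100 most abundant transcripts, 63 to 68 were in the top 100 of each other day 13 library and 66 to 77 in that of each day 19 library. Pairs within day 13 replicates 1 to 4 shared 80 to 90, and those 4 shared 62 to 71 with the day 19 libraries. Results are therefore given with and without it. Transcripts are not independent observations, so these correlations describe the libraries and carry no test.

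With all 9 libraries, 2686 of 14591 transcripts changed between day 13 and day 19, which is 18.4% of those tested. Of these, 1127 were higher on day 19 (7.72%) and 1559 were lower (10.7%). A change was called at a limma adjusted p under 0.05 and a log2 change of at least 1 on the log2(RPKM + 1) scale. Without day 13 replicate 5, 3940 of 14398 changed (27.4%), 1436 higher (9.97%) and 2504 lower (17.4%). The 2 fits shared 2485 called transcripts, 1087 higher and 1398 lower, with 0 in opposite directions. These were bulk samples, so fewer cells of a kind and less RNA per cell cannot be told apart.

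The balance between rises and falls depended on scaling. Over all transcripts tested, the median log2 change was -0.22. Relative to that shift, with each library centred on its median, 1471 transcripts were higher and 985 lower, so that 59.9% of calls were rises against 42.0% before. Quantile normalization gave 53.2% rises, with 1436 higher and 1266 lower. Without day 13 replicate 5 the share of rises was 36.4%, and 51.8% after quantile normalization. The count fell to 1736 without day 19 replicate 4, to 1703 with day 19 replicate 5 included as labelled, and to 1331 when all 5 days were fitted in 1 model. At equal depth 2380 were called.

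**Figure D1:**
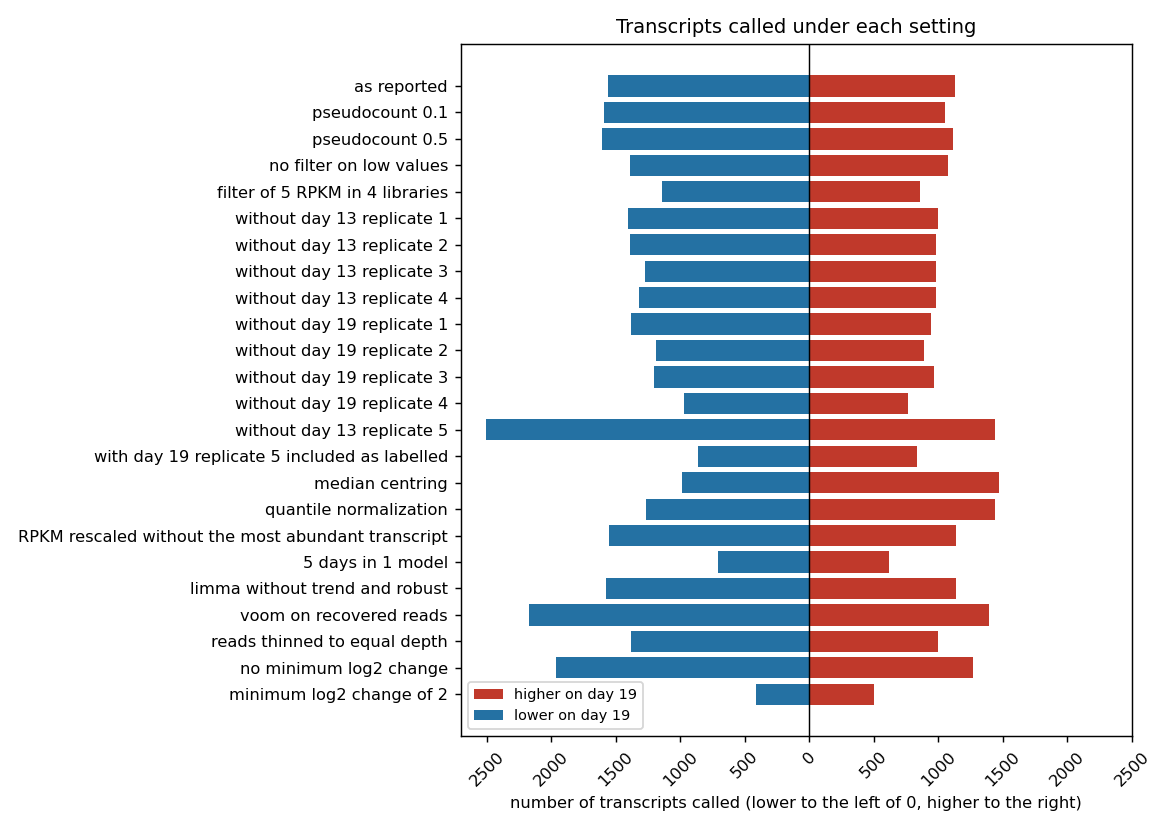
Number of transcripts called higher (red, right of 0) and lower (blue, left of 0) on day 19 under each setting, 1 row per setting, with the reported 1127 and 1559 in the top row. Falls outnumber rises in most rows, and rises outnumber falls after median centring (1471 against 985), after quantile normalization (1436 against 1266) and at a minimum log2 change of 2 (499 against 413).

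Large changes were more often rises. Among called transcripts the median log2 change was 1.88 for rises and -1.52 for falls. A log2 change of 3 or more in size was reached by 208 rises and 119 falls, and one of 5 or more by 42 rises and 8 falls. Without day 13 replicate 5 the latter numbers were 56 and 9. At the other end, 3068 transcripts (21.0%) had a 95% interval of the change that lay wholly within 1 log2 unit of no change, and 4612 (32.0%) had one without day 13 replicate 5. The remaining uncalled transcripts were not shown to be stable, since the median interval reached 0.79 to either side of the estimate.

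**Figure D2:**
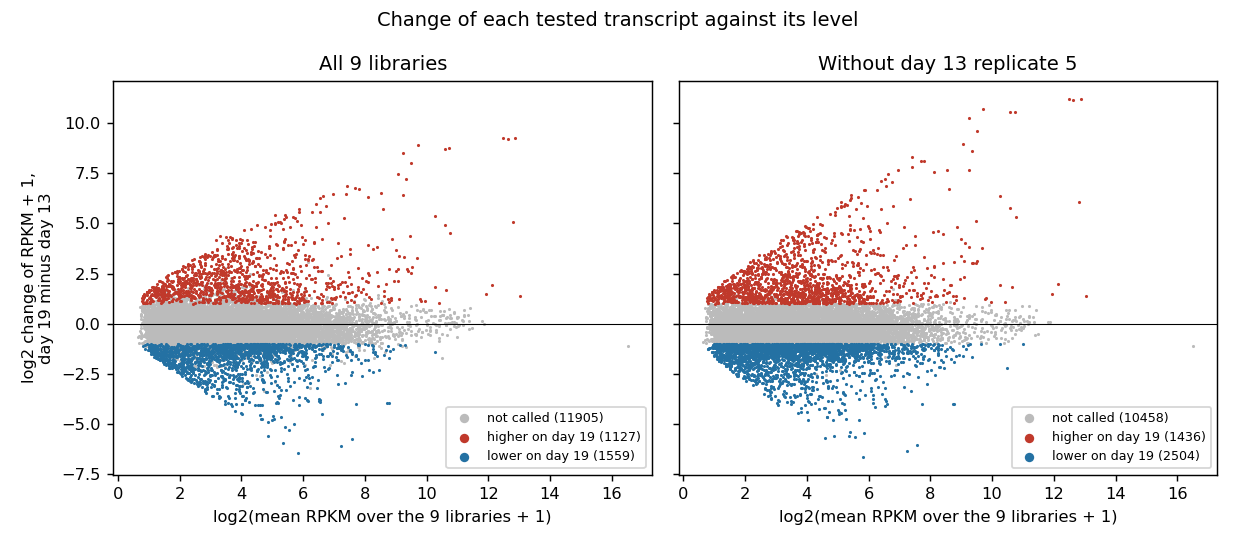
Change of each tested transcript (vertical, log2 scale, day 19 minus day 13) against its mean level over the 9 libraries (horizontal, log2 scale), with all 9 libraries on the left and without day 13 replicate 5 on the right. Red points are the 1127 (left) and 1436 (right) transcripts higher on day 19, blue points the 1559 and 2504 that were lower, and grey points those not called. The red points reach farther from 0 than the blue ones.

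The median SD of a transcript was 0.61 on the log2 scale over the 5 day 13 libraries, 0.36 over day 13 replicates 1 to 4 and 0.34 over the 4 day 19 libraries. A further 1455 transcripts were called without day 13 replicate 5 and not with it. Their median change was 0.94 in size with it and 1.26 without. Groups of the 2 days did not overlap in 3199 tested transcripts (21.9%), with day 19 above all 5 day 13 libraries in 1145 (7.85%) and below them in 2054 (14.1%).

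A set of 4 transcripts, 2 in each direction, is described in full. They are the called transcripts with the smallest p whose libraries do not overlap between the days, with a mean of at least 5 RPKM on the higher day and a call also without day 13 replicate 5. Each of the 4 passed the filter on low values through the libraries of its higher day alone. Their p-values took part in the choice and are given as description. The files hold no sequence or gene name for them.

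ENSBTAT00000000977, a transcript of 887 nucleotides, had no read in any of the 5 day 13 libraries. On day 19 it stood at 13.5, 23.1, 11.6 and 23.9 RPKM in replicates 1 to 4, from 64 to 219 reads each. It passed the filter on low values through its day 19 libraries alone. The day 19 mean of 18.0 ± 6.4 RPKM (SD, n = 4) was at least 126.2-fold higher than the level that 3 reads in all day 13 libraries together would give. The log2 change was 4.19 ± 0.31 (SE; limma adjusted p = 1.9e-05). On day 16 it was present in all 4 libraries used (replicate 5, whose file is named for day 19, is left out of day 16 here and below, and replicates 2 and 3 are close to one sample, with a mean chi-square of 1.19, so the 4 stand for about 3) at 16.22 to 44.1 RPKM, a range that overlaps day 19. Earlier it was irregular: 5 of 6 day 7 libraries had reads, with a highest value of 46.9 RPKM, and 3 of 7 day 10 libraries, with a highest value of 18.9 RPKM.

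ENSBTAT00000051870 is only 92 nucleotides long, and its values rest on few reads. It too had no read on day 13, and on day 19 it stood at 24.4, 24.4, 18.0 and 13.9 RPKM, from 12, 24, 18 and 13 reads. The day 19 mean of 20.2 ± 5.2 RPKM (SD, n = 4) was at least 14.7-fold higher than 3 reads in all day 13 libraries together would give. The log2 change was 4.37 ± 0.29 (SE; limma adjusted p = 1.2e-05). A read was present in the 4 day 16 libraries used, but in 2 of 6 on day 7 and 2 of 7 on day 10. At 92 nucleotides, 3 reads over all of day 7 amount to 2.41 RPKM, so low levels there were not detectable.

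ENSBTAT00000016392, of 792 nucleotides, was lost by day 19. On day 13 it stood at 86.6, 64.9, 162.6, 133.8 and 53.3 RPKM in replicates 1 to 5. On day 19 it was without a read in replicates 1 to 3 and had 2 reads, 0.249 RPKM, in replicate 4. The 5 day 13 libraries varied among themselves, with replicate 3 the highest and replicate 5 the lowest, and all lay above day 19. The log2 change was -6.46 ± 0.34 (SE; limma adjusted p = 9.4e-06). The ratio of the means was 1610 (95% counting interval 446 to 13296, from the 2 reads of day 19). Medians were higher on day 7, at 408.6 RPKM (45.3 to 1377), and on day 10, at 198.0 RPKM (24.1 to 313). Both ranges overlapped day 13, and the lowest library of each lay below every day 13 library. On day 16, 3 libraries lay between 0 and 0.51 RPKM, whereas replicate 1 was at 68.7, within the day 13 range.

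ENSBTAT00000022269, of 981 nucleotides, was also lost by day 19. Its day 13 values were 24.3, 54.6, 71.0, 54.3 and 49.6 RPKM, and no day 19 library had a read. The day 13 mean of 50.8 ± 16.9 RPKM (SD, n = 5) was at least 615-fold higher than 3 reads in all day 19 libraries together would give. The log2 change was -5.62 ± 0.32 (SE; limma adjusted p = 9.4e-06). Day 7 had a median of 329.3 RPKM and day 10 one of 104.0, both above day 13. On day 16 only replicate 1 had reads, at 87.0 RPKM. The library left out, day 19 replicate 5, was at 333 RPKM, and with it included the call ended (log2 change -3.94, limma adjusted p = 0.0796). Both falling transcripts were thus high in day 16 replicate 1 and in day 19 replicate 5, and at most 0.51 RPKM in the other libraries of days 16 and 19.

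**Figure D3:**
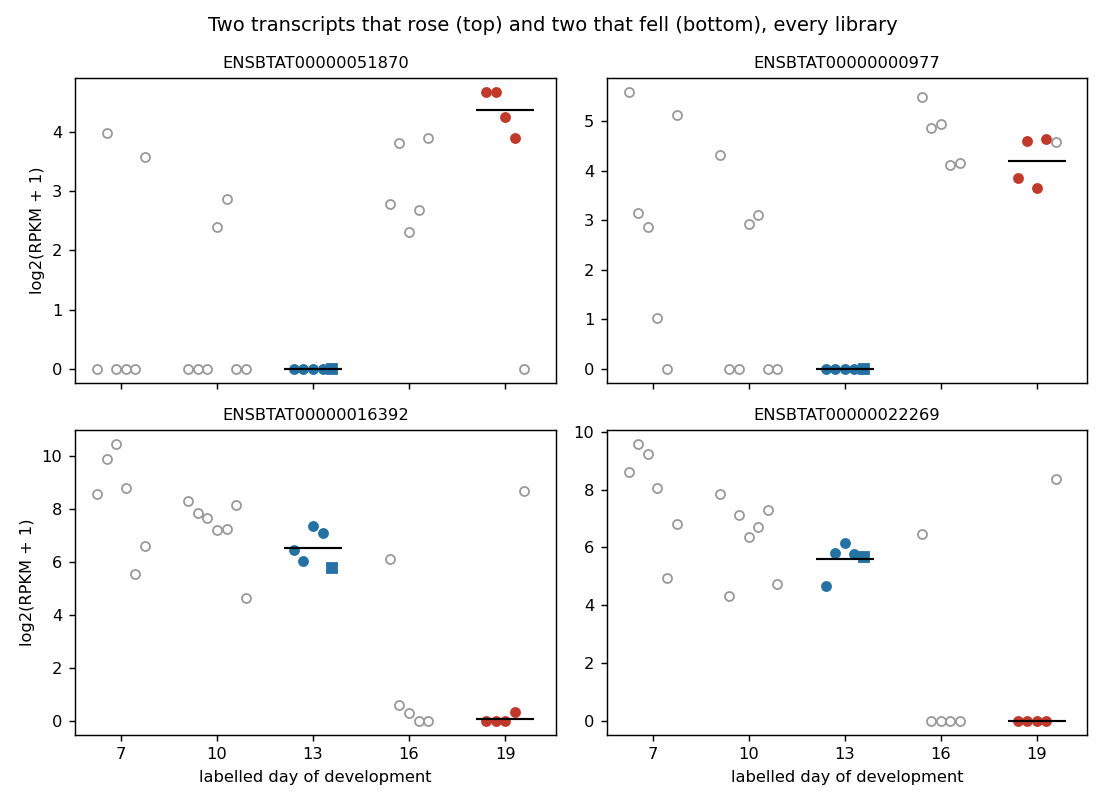
Level of the 4 transcripts, log2(RPKM + 1), in every library by labelled day. Filled symbols are the 9 libraries compared (blue day 13, red day 19, with a square for day 13 replicate 5), open grey circles are the libraries that did not enter, and black lines are the means of the libraries compared. The 2 rising transcripts lie at 0 in all 5 day 13 libraries and the 2 falling ones at or near 0 in all 4 day 19 libraries.

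The most abundant transcripts turned over in part. Of the 10 with the highest mean RPKM on day 19, 4 were also among the 10 highest of day 13, and 7 had risen. A group of 3 of those 7, of 997, 1081 and 1093 nucleotides, reached means of 15456, 13021 and 11838 RPKM on day 19 from 5.96, 5.45 and 4.64 RPKM in day 13 replicates 1 to 4. In day 13 replicate 5 the same 3 stood at 5648, 4638 and 4158 RPKM, on the log2 scale closer to day 19 than to the other libraries of its own day. The other 4 risen transcripts of the 10 were present at 199 to 4897 RPKM in day 13 replicates 1 to 4, and their log2 changes were 1.36 to 5.05. Among the top 100 of each day, 72 were shared, 31 of the day 19 set had risen and 1 of the day 13 set had fallen. Without day 13 replicate 5 these numbers were 68, 31 and 8. The top 10, 100 and 1000 were chosen by level on a day in the same libraries that made the calls. That choice favours rises in the day 19 sets and falls in the day 13 sets, so the counts are description. Among the 1000 highest of day 13, 124 had fallen, and 223 without replicate 5. Among the 1000 highest of day 19, 182 had risen, and 196 without it. Over all tested transcripts, 10.7% had fallen and 7.72% had risen. Without replicate 5 these shares were 17.4% and 9.97%.

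Reads were more concentrated on day 19. Leaving out the single most abundant transcript, also 92 nucleotides long, 526.5 ± 52.8 transcripts held the upper 50% of reads on day 19 (SD, n = 4) and 833 ± 93 did on day 13 (n = 5). The 2 days did not overlap (two-sided exact permutation p = 0.0159, the lowest that 5 against 4 libraries can give; adjusted p = 0.0397 over 5 library measures). The 10 most abundant of the other transcripts took 9.19 ± 1.40% of day 19 reads, every value above the 5.81 ± 0.94% of day 13 and its highest library (exact permutation p = 0.0159, adjusted p = 0.0397). Transcripts at 1 RPKM or more numbered 13642 ± 184 on day 19 and 14134 ± 730 on day 13, a difference that did not pass (exact permutation p = 0.270, adjusted p = 0.337). It did pass without day 13 replicate 5, where day 13 had 14459 ± 79 (n = 4, exact permutation p = 0.0286, adjusted p = 0.0357). A p of 0.0286 is the lowest that this exact permutation test can give with 4 against 4 libraries. At equal depth 15487 ± 102 transcripts had a read on day 19 and 16128 ± 38 in day 13 replicates 1 to 4 (exact permutation p = 0.0286, adjusted p = 0.0357), but 14024 in day 13 replicate 5. With that library included, the difference at equal depth did not pass (exact permutation p = 0.841, adjusted p = 0.841). Total reads did not pass either (exact permutation p = 0.0635, adjusted p = 0.106).

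The 1127 transcripts higher on day 19 took 20.6 to 26.9% of the reads of the 4 day 19 libraries, 3.64 to 4.48% in day 13 replicates 1 to 4 and 10.3% in replicate 5. The 1559 lower ones took 3.71 to 4.49% on day 19, 12.5 to 13.05% in day 13 replicates 1 to 4 and 15.3% in replicate 5. The direction of both shares was set by the choice of the transcripts. Within day 13, replicate 5 had the highest share in both sets: toward day 19 in the first and away from it in the second.

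**Figure D4:**
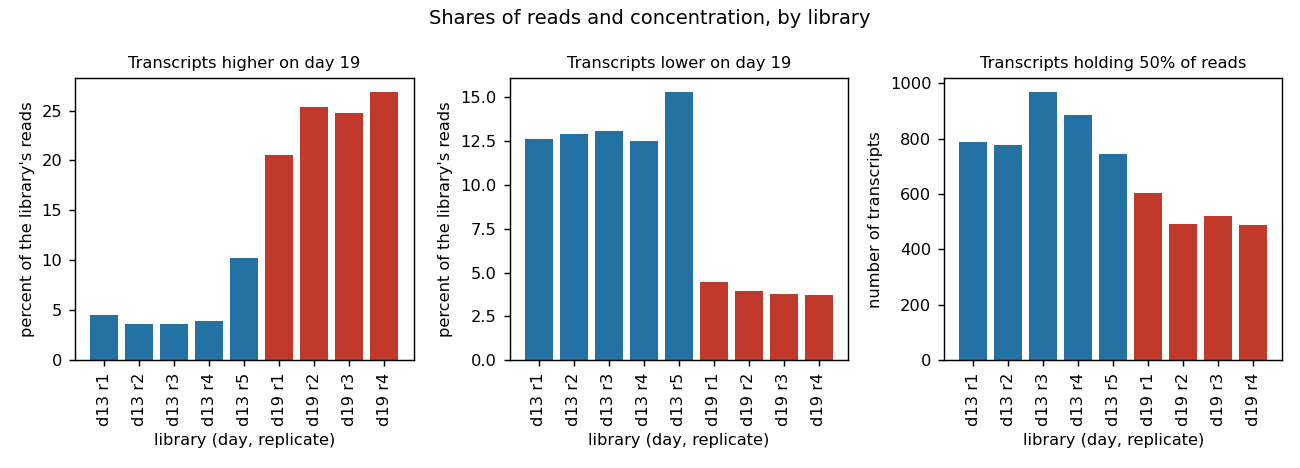
Percent of each library's reads in the 1127 transcripts higher on day 19 (left) and in the 1559 lower on day 19 (middle), and the number of transcripts that together hold 50% of reads, leaving out the most abundant one (right). Bars are single libraries (d, day; r, replicate), blue for day 13 and red for day 19, and the highest blue bar on the left and in the middle is day 13 replicate 5.

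Changes were found at every level of expression. Of the 1041 transcripts with a mean of at least 100 RPKM, 11.7% were higher on day 19 and 8.17% lower. Of the 2470 under 3 RPKM, 7.41% were higher and 10.7% lower. Rises were the more frequent only in the most abundant of 5 level classes, and without day 13 replicate 5 falls were the more frequent there too, at 15.2% against 12.8%. After median centring rises were the more frequent in all 5 classes.

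From 200 nucleotides upward, the share of falls grew with transcript length when all 9 libraries were used. It was 6.31% among 111 transcripts under 200 nucleotides, which lies outside that order, 5.28% among 530 transcripts of 200 to 500 nucleotides, 9.94% among 5542 of 1000 to 2000, and 14.2% among 1188 of 4000 or more. Without day 13 replicate 5 the same classes had 18.7%, 17.7%, 17.3% and 15.9%, so the increase was not present without that library. Rises ran from 8.11% in the 200 to 500 class to 6.48% in the longest, and from 10.5% to 9.20% without it.

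Presence and absence gave an answer that depended on depth. With all reads, 208 transcripts had a read in every day 19 library and none on day 13, and 33 showed the opposite. The 23.7 M reads of day 13 allow such a transcript up to 0.127 CPM there, and the 37.0 M of day 19 allow 0.081. When every library was thinned to equal depth the numbers were 81 and 103, so the excess on the day 19 side was not present at equal depth per library. The days still differed in thinned reads, with 6.16 M over 5 libraries of day 13 and 4.93 M over 4 of day 19. Without day 13 replicate 5 the numbers were 270 and 89 with all reads. At equal depth they were then 167 and 200, with 4.93 M thinned reads on each day. Most of these transcripts were weakly read, and 21 of the 208 and 7 of the 33 had a mean of at least 5 RPKM. Of the 208, 31 passed the filter on low values. Of the 270 that were without a read in day 13 replicates 1 to 4, 62 had one in replicate 5. In the days that had no part in this choice, 203 of the 208 had a read in at least 1 of 4 day 16 libraries, 186 in at least 1 of 6 on day 7 and 185 in at least 1 of 7 on day 10. A read in every library was found for 107, 3 and 0 of them. Of the 33, 32, 30 and 33 had a read in at least 1 library of those days, and 8, 4 and 2 in every one. Among all 28054 transcripts, 23599, 23074 and 22917 had a read in at least 1 library of days 16, 7 and 10, and 16840, 11060 and 9742 in every one. These shares are not matched for level.

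The called transcripts were also read in the days that did not enter the fit, as a description. Levels here are medians of log2(RPKM + 1). The 1127 higher transcripts stood at 3.24 in blastocysts of day 7, at 3.12 in the spheres of day 10 and at 4.58 in the filaments of day 16, beside their 2.09 on day 13 and 4.54 on day 19. The 1559 lower ones stood at 3.11, 3.19 and 2.57 in the same 3 stages, beside 4.06 (day 13) and 2.20 (day 19). For all tested transcripts the 3 stages had 3.43, 3.34 and 3.49, beside 3.52 (day 13) and 3.38 (day 19). The day 13 and day 19 medians of the called sets were fixed by their choice, which also tends to set day 13 apart from days 7, 10 and 16. For both sets the day 16 median lay nearer to day 19 than to day 13. RNA was prepared alike on days 16 and 19, so time and preparation cannot be told apart here either.

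Day 13 replicate 5 had no part in the calls made without it, and its median position in these transcripts lay between the days. For the 1436 higher transcripts its median position was 54.7% of the way from the mean of day 13 replicates 1 to 4 to the mean of day 19, with quartiles of 0 and 86.5%. It was nearer to day 19 in 763 of them (53.1%) and within the range of day 13 replicates 1 to 4 in 340 (23.7%). For the 2504 lower ones the median was 61.0%, but the quartiles ran from -8.8 to 137%. Its position thus varied widely between transcripts, most of all among those that fell. Position is a share of the gap between the days, whose median was 1.75 log2 for the rises and -1.41 for the falls. The part of gap size in this spread was not tested. Both sets were chosen for a gap between day 13 replicates 1 to 4 and day 19. That choice tends to place a library outside the fit between them. In the same sets day 19 replicate 5, also left out, had medians of 53.6% (higher) and 36.0% (lower). Day 16 replicates 1 to 4 had medians of 102 to 105% and 82.4 to 94.1%. Day 13 replicate 5 was also the shallowest of the 9, at 1.23 M reads, and the part of depth in its position was not tested.

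**Figure D5:**
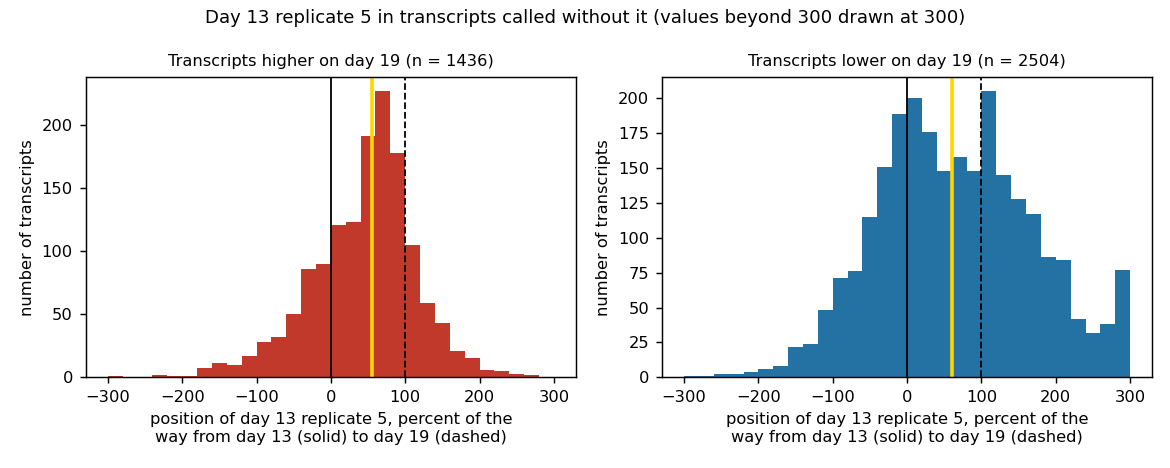
Position of day 13 replicate 5 (horizontal, percent of the way from the mean of day 13 replicates 1 to 4, solid line, to the mean of day 19, dashed line) in the 1436 transcripts higher (left) and the 2504 lower (right) on day 19 in the fit without it. Bars count transcripts, and the yellow lines mark the medians of 54.7% and 61.0%.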

How the data were processed

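The deposited files hold 1 RPKM value per Ensembl transcript and library, as the authors computed it. Per the submitters' processing notes CASAVA was among the tools, with neither version nor role; the sources used here give no aligner, genome build or annotation. Each RPKM value above 0 that the authors deposited was a whole number of reads over a length and a library total, so reads were recovered: 100.0% came out whole within 1e-06 of a read, at least 99.977% of each total. Limits for reads cover counting error only.

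Transcripts that reached 1 RPKM in 4 or more of the 9 libraries entered limma 3.58.1 (R 4.3.3; lmFit and eBayes, both trend and robust switched on), with values as log2(RPKM + 1), two-sided, with Benjamini-Hochberg adjustment over all of them; the pseudocount understates changes of low transcripts. The filter was applied anew without day 13 replicate 5. Called transcripts were named by smallest p, 2 per direction, under the conditions given with them. Single library measures were compared by exact permutation (scipy 1.17.1). The scripts were tested on simulated data. Comparison, libraries and lists were chosen with earlier results of these data known. Alternatives covered pseudocount, filter, normalization, model, test, depth and each library; those on the fit without day 13 replicate 5 were added after seeing the data. The labels do not tie samples to heifers, so the p-values speak of the spread among these libraries only. No pair of the 9 libraries agreed within sampling noise, with a mean chi-square per transcript of at least 14.1 where noise gives 1. In the model of 5 days, day 16 replicates 2 and 3, with a mean chi-square of 1.19, counted as 1 sample.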

Additional observations from a re-analysis of the deposited data

Results flagged for a closer look

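Each of 8 library measures and the 4 transcripts described in full was searched, within day 13 and within day 19, for a library far from the others. This held in 7 of the 24 searches; with normal values chance alone would give about 1 in 20, but the searches are not independent, and where all other libraries are at 0 any read stands out, as in the last case below. Day 13 replicate 5 accounted for 4. It had 12834 transcripts at 1 RPKM or more, against 14344 to 14523 in the other 4, and 14024 with a read at equal depth, against 16074 to 16155. Transcripts higher on day 19 took 10.3% of its reads, against 3.64 to 4.48%, and those lower on day 19 took 15.3%, against 12.5 to 13.05%. Both sets were called from these same libraries, day 13 replicate 5 among them, so their shares are not independent of the calls. Day 19 replicate 1 had 5.34 M reads, against 10.14 to 10.9 M in the other 3. It held 3.22% of its reads in the most abundant transcript, against 0.108 to 0.160%. ENSBTAT00000016392 was at 0.249 RPKM in day 19 replicate 4, from 2 reads, and without a read in the other 3.

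The 2 libraries whose file is named for another day than their label were outside the comparison and are placed here between its days. Day 19 replicate 5 (file named for day 7) had a median position 48.2% of the way from day 13 to day 19 in the 1127 higher transcripts and 29.8% in the 1559 lower ones. Day 16 replicate 5 (file named for day 19) had 77.2% and 109%. No explanation was tested.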

How the results depend on the processing

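No paired analysis was possible because the labels number no replicates: the numbers used here follow accession order and tie no library of one day to one of the other. Leaving out 1 library at a time, the number of transcripts called ran from 1736 (without day 19 replicate 4) to 3940 (without day 13 replicate 5), with 765 to 1436 higher and 971 to 2504 lower. Except for day 13 replicate 5, the transcripts tested were held fixed. In the fit without that library, leaving out a second one gave 3566 to 4169. The count was 1703 (866 lower) with day 19 replicate 5 included, 1331 (621 higher and 710 lower) with 5 days in 1 model, and 912 (499 higher and 413 lower) at a minimum log2 change of 2. Median centring left 985 lower. For presence and absence, thinning gave 81 on the day 19 side and 103 on the day 13 side, the latter being 89 without day 13 replicate 5 and 200 with both changes. The day 19 minus day 13 difference in transcripts at 1 RPKM or more, -492.2, was 570.6 at a threshold of 0.1 RPKM. The causes were not tested. Of 83 values of the 4 named transcripts under alternatives, 82 kept their call and direction; the exception was ENSBTAT00000022269 with day 19 replicate 5 included (-3.94). Their choice, by smallest p and a call also without day 13 replicate 5, favours keeping the call, so this is no sign of stability. ENSBTAT00000051870 did not pass the filter at equal depth and has no value there. Depth limits transcripts with few reads, above all in day 13 replicate 5.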

Other observations

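At an equal depth of 473536 reads, Pearson correlations across the 14591 tested transcripts were taken for the libraries that stood apart or were left out, as a description without a test. The mean correlation of day 13 replicate 5 was 0.714 with 6 day 7 libraries, 0.729 with 7 of day 10, 0.743 with day 13 replicates 1 to 4, 0.746 with 4 of day 16 and 0.756 with 4 of day 19. Its highest single value was 0.793, with day 10 replicate 5. At the same depth day 13 replicates 1 to 4 had 0.886 to 0.921 with each other, the 7 day 10 libraries 0.687 to 0.924 and the 6 day 7 libraries 0.705 to 0.895. The left-out day 19 replicate 5 had a mean of 0.817 with day 7 libraries and 0.755 with day 19 libraries, and its highest value was 0.865 with day 7 replicate 1. Day 16 replicate 5, which carries a day 19 file name, had 0.871 with the other day 16 libraries and 0.887 with those of day 19. In ENSBTAT00000016392 and ENSBTAT00000022269, the 2 falling transcripts described in full, day 19 replicate 5 stood at 409 and 333 RPKM, where the 4 day 19 libraries compared had at most 0.249.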
